A study of Mus musculus with 15 samples.

Results

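The 8 genes described here, Uhrf1, Dnmt1, Dnmt3a, Hells, Tet2, Tet3, Ung and Tdg, copy, write or remove DNA methylation or start the excision of a damaged base, and they were followed in microglia of mice given a TREM2 antibody. They are a listed set, 8 of 32372 genes in the count matrix, and all 8 were among the 14260 genes with enough counts to be tested. The list was made with earlier results of these data known, in particular the comparison of day 1 with the control and of day 7 with day 1. Values from those comparisons are therefore a description and carry no test.

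The study followed the microglial response to a single dose of ATV:4D9 over time by single-cell RNA sequencing. ATV:4D9 is the antibody 4D9 against mouse TREM2, a lipid-sensing receptor of microglia, joined to an Fc that binds the human transferrin receptor (antibody transport vehicle, ATV) and so is carried across brain endothelium. Its controls received ATV:RSV, an antibody with no target in the mouse on the same kind of vehicle. All mice, controls included, were male C57BL/6J hTfR KI animals of 3.5 months, whose own transferrin receptor gene carries a human segment, and all received 10 mg/kg of antibody. ATV:RSV mice were sampled at day 1 and ATV:4D9 mice at day 1, 7, 14 or 28, 3 mice to a group, and the 5 groups were spread evenly over 3 batches. Cells came from dissociated brain tissue and were enriched with beads against CD45, a marker of all leukocytes. Days 7, 14 and 28 had no control of their own day, so that time since the dose and handling on the day cannot be told apart there, and the 3 ATV:RSV mice served all comparisons with a control.

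Each mouse gave 5667 to 7596 cells and 32341960 to 70307384 molecules counted by unique molecular identifier (UMI). Between 99.8% and 100% of the cells of a mouse held at least 3 of 10 microglia markers, and 1.01% of all cells held at least 3 markers of another cell type. Cells were deeper at day 1 of ATV:4D9, with a median of 8202 to 8996 UMIs per cell in its 3 mice against 4975 to 5750 in ATV:RSV, so levels are given as CPM, which relates the UMIs of a gene to all UMIs of its mouse after scaling by the TMM method, and for some genes also as UMIs per 100 cells. Summed over the 10 microglia markers, the level was 17880 to 19895 CPM at day 1 of ATV:4D9 and 22766 to 24442 CPM in ATV:RSV. The share of cells with at least 3 markers of border-associated macrophages was 0.843% to 1.23% at day 1 of ATV:4D9 and 0.231% to 0.385% in ATV:RSV, in unthinned cells, and their markers summed to 19.8 to 29.7 against 16.2 to 19.5 CPM. Astrocyte markers summed to 128 to 138 CPM at day 1 and 208 to 256.5 CPM in ATV:RSV. Most of that sum was Slc1a3, with 107 to 260 CPM of total UMIs over all mice and found in 62.7% of all cells. Aqp4, Gja1, Aldoc, Slc1a2 and Gfap were each at most 6.18 CPM in any mouse. Markers of the oligodendrocyte lineage summed to 32.2 to 35.6 CPM at day 1 and 44.1 to 58.1 CPM in ATV:RSV, and those of neurons to 5.41 to 7.35 and 9.42 to 12.1 CPM. The 6 monocyte markers summed to 16.2 to 20.7 CPM at day 1 and 4.61 to 12.3 CPM in ATV:RSV, with 1 cell in each group that held at least 3 of them, and the median percent of mitochondrial UMIs was 3.96 to 4.50 against 3.11 to 3.38. The part of these values in the results was not tested. Without all cells that carried 3 markers of another type, the log2 fold changes of day 1 against ATV:RSV were 7.22 for Uhrf1, 6.13 for Hells, 2.46 for Dnmt1, 6.64 for Ung, 0.34 for Tdg, −0.42 for Tet2 and −0.86 for Tet3, close to the values with all cells given below. A further 1283 of 100747 barcode sequences occurred in more than 1 mouse, in 2579 cells.

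In mammals, DNA methylation sits mostly on cytosines of CpG dinucleotides and has to be copied onto the new strand each time DNA is replicated. UHRF1 binds hemimethylated CpGs behind the replication fork and brings in DNMT1, the maintenance methyltransferase, while HELLS, an SNF2-family remodeler also called LSH, opens nucleosomal DNA for methylation. DNMT3A methylates new sites and works outside S phase too. TET2 and TET3 oxidize methylcytosine, and TDG excises some of the oxidized forms, not all, as well as thymine paired with guanine. UNG excises uracil, much of it misincorporated during replication. Base excision repair then cuts, fills and seals the gap. In the healthy adult brain most microglia are not dividing.

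Uhrf1 lies on chromosome 17 (56303321 to 56323486, plus strand), Dnmt1 on chromosome 9 (20907209 to 20959888, minus strand), Hells on chromosome 19 (38930915 to 38971051, plus strand) and Ung on chromosome 5 (114130386 to 114139323, plus strand) of mm10, per GENCODE M21. Dnmt3a lies on chromosome 12 (3806007 to 3914443, plus strand), Tet2 on chromosome 3 (133463679 to 133545139, minus strand), Tet3 on chromosome 6 (83362373 to 83459084, minus strand) and Tdg on chromosome 10 (82629828 to 82650799, plus strand). All 8 are annotated as protein coding, and the 3′ libraries count mostly their last exons. Dnmt3a overlaps the antisense gene Dnmt3aos, which held 507 UMIs in all mice together, and the use of strand in counting is not given in the sources used here.

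The promoters of the genes that moved most are shown because their letters can be compared directly. RefSeq windows on GRCm38.p6 from 250 bases before to 50 bases after each annotated start were given for all 8 genes and searched on both strands for the E2F motif, for the NF-Y motif CCAAT and for the CHR motif TTTGAA. The E2F motif was spelled as TTGGCGC or as TTCGCGC, as TTGCCGC or as TTCCCGC. E2F factors are regulators of genes used in S phase. At least 1 E2F spelling was found for 3 of the 8 genes, Uhrf1, Dnmt1 and Hells, and for 10.9% of all 27025 genes with a window. CCAAT was found for 4 of the 8 (Uhrf1, Dnmt1, Tet3 and Tdg) and for 41.1% of all genes, and TTTGAA for Dnmt1 and for 20.2% of all genes. A gene may have several windows. None of the E2F letters overlapped another match. A match is only a run of letters, and its use in these cells was not measured. Capitals mark the E2F letters in the sequences below, which are read on the strand of the gene, so that a match on the other strand appears as its reverse complement. The sequences of Uhrf1 are the parts of its 2 upstream windows outside annotated exons, with a match 48 bases before the first start and a match 184 bases before the second. For Hells and Dnmt1, 30 bases around matches inside annotated exons are shown, with both matches of Hells and 1 of 3 of Dnmt1, and Ung is shown as a gene that moved with them and holds none of these spellings in its window.
Uhrf1, first start, chr17:56303087-56303320: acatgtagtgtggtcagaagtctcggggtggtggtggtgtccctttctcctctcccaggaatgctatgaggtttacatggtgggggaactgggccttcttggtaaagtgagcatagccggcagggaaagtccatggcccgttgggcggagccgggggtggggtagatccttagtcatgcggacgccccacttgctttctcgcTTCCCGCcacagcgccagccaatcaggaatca
Uhrf1, second start, chr17:56304063-56304312: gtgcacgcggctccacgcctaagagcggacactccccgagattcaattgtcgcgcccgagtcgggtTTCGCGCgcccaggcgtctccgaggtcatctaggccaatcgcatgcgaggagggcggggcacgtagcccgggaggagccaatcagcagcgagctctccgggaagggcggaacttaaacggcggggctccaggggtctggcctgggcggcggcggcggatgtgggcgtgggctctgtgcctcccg
Hells, chr19:38930926-38930955: gttTTCCCGCgaaagagaagcGCGCGAAtt
Dnmt1, chr9:20952816-20952845: cgcGCGCGAAaaagccggggtctcgttcag
Ung, chr5:114130185-114130385: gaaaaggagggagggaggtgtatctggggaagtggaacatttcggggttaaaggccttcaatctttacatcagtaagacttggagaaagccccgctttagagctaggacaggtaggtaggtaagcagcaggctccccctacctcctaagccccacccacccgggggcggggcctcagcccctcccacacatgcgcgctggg

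The maintenance genes Uhrf1, Hells and Dnmt1 were higher 1 day after ATV:4D9 than in ATV:RSV, by about 131-fold, 66.9-fold and 5.48-fold. Ung was about 99.7-fold higher. Tet2 and Tet3 were lower by 1.34-fold and 1.81-fold in CPM, and Tdg and Dnmt3a were 1.28-fold and 1.08-fold above it. At days 7, 14 and 28 the CPM of all 8 genes overlapped with ATV:RSV.

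Uhrf1, the reader that recruits the maintenance enzyme, was counted with 30, 18 and 10 UMIs in the 3 ATV:RSV mice and with 2963, 3949 and 2529 UMIs in the 3 mice of ATV:4D9 day 1. Its level was 0.429 ± 0.187 CPM in ATV:RSV and 55.1 ± 9.02 CPM at day 1 of ATV:4D9 (mean ± SD, n = 3). The groups were far apart, with 46.5 CPM in the lowest day 1 mouse and 0.613 CPM in the highest control mouse. The log2 fold change was 7.03 (SE 0.374), and it ranged from 6.68 to 7.35 when a mouse was left out. The control rests on 58 UMIs in 3 mice.

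Hells was counted with 92, 50 and 41 UMIs in ATV:RSV and with 5034, 6277 and 4140 UMIs at day 1 of ATV:4D9. In CPM this was 1.36 ± 0.469 against 90.1 ± 11.8 (SD, n = 3), a log2 fold change of 6.06 (SE 0.219). As for Uhrf1, the second day 1 mouse had the highest value and the first ATV:RSV mouse the highest of its group.

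Dnmt1 was expressed in the control too, with 816, 683 and 585 UMIs in ATV:RSV and 5030, 5844 and 3950 UMIs at day 1 of ATV:4D9. Its level went from 15.7 ± 1.52 to 86.3 ± 8.37 CPM (SD, n = 3), with a log2 fold change of 2.46 (SE 0.0874). In CPM all 3 of these genes were highest in replicate 2 and lowest in replicate 1 of day 1.

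Ung, the uracil glycosylase, was counted with 19, 12 and 21 UMIs in ATV:RSV and with 2366, 2439 and 1941 UMIs at day 1 of ATV:4D9. The level of 39.5 ± 2.19 CPM at day 1 varied little between mice, and the control level was 0.393 ± 0.106 CPM (SD, n = 3). The log2 fold change was 6.64 (SE 0.281). Within day 1 the order of mice differed from that of Uhrf1, with replicate 3 highest at 41.5 CPM.

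Tdg, the thymine glycosylase, was counted with 552, 519 and 510 UMIs in ATV:RSV and with 865, 913 and 841 UMIs at day 1 of ATV:4D9. In CPM the 3 day 1 mice stood at 13.6, 14.9 and 18.0 and the ATV:RSV mice at 11.3, 12.5 and 12.2. The groups did not overlap, but the log2 fold change of 0.35 (SE 0.0993) was small, and it was 0.11 when libraries were scaled by their total alone and −0.19 in cells of cluster 0 alone. The cluster 0 value rests on 12 to 25 Tdg UMIs in 211 to 383 cells per day 1 mouse, against 346 to 382 UMIs per ATV:RSV mouse. Per 100 cells, Tdg stood at 7.79 ± 0.129 UMIs in ATV:RSV and 12.9 ± 1.01 at day 1 (SD, n = 3).

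Dnmt3a, the de novo enzyme, was counted with 3608, 3124 and 2958 UMIs in ATV:RSV and with 5240, 5045 and 3403 UMIs at day 1 of ATV:4D9. Its level was 73.2 ± 2.44 CPM against 79.2 ± 5.53 CPM (SD, n = 3), and the groups overlapped. Per 100 cells, with no scaling for depth, they did not, with 47.7 ± 3.24 against 66.4 ± 8.68 UMIs. The log2 fold change in CPM was 0.11 (SE 0.0595), and it was −0.13 when libraries were scaled by their total alone.

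Tet2 was counted with 1954, 1682 and 1682 UMIs in ATV:RSV and with 1871, 1959 and 1338 UMIs at day 1 of ATV:4D9. In CPM it stood at 40.2 ± 0.323 in ATV:RSV and 30.0 ± 1.77 at day 1 (SD, n = 3), a log2 fold change of −0.42 (SE 0.0578). Per cell the 2 groups overlapped, at 26.2 ± 1.55 and 25.1 ± 2.42 UMIs per 100 cells, since the day 1 cells held more UMIs in all.

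Tet3 was lower on both scales, counted with 3249, 2803 and 2702 UMIs in ATV:RSV and with 2371, 2462 and 1502 UMIs at day 1 of ATV:4D9. In CPM it stood at 66.2 ± 1.59 against 36.5 ± 4.09, and per 100 cells at 43.1 ± 2.79 against 30.6 ± 4.84 UMIs (SD, n = 3). The log2 fold change in CPM was −0.86 (SE 0.0836). No day 1 mouse reached the lowest ATV:RSV mouse on either scale.

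**Figure D1:**
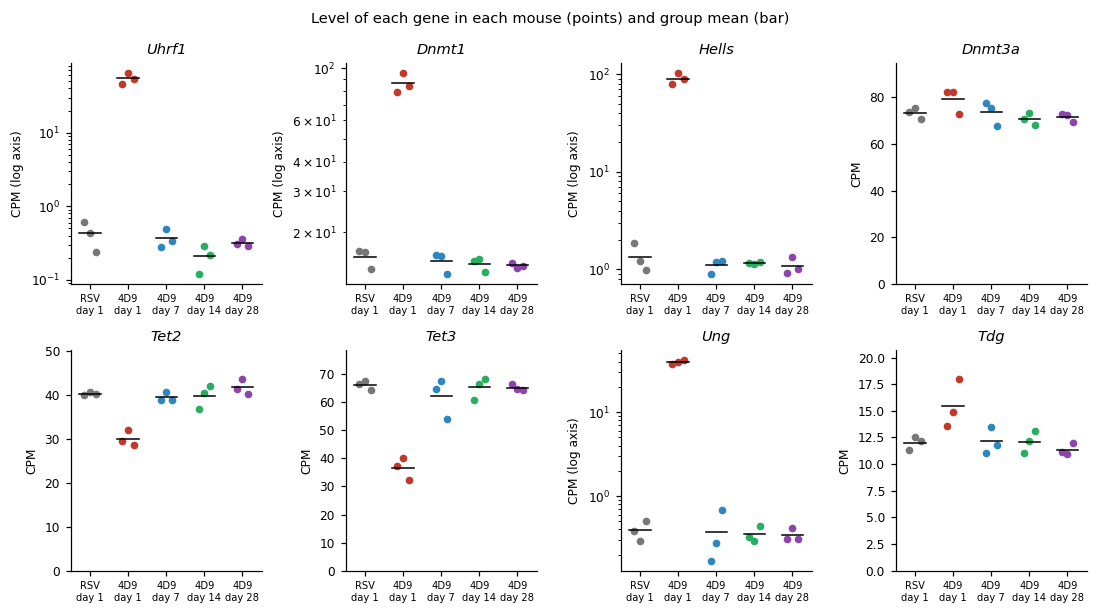
Level of each of the 8 genes in CPM (vertical axis, logarithmic for Uhrf1, Dnmt1, Hells and Ung and linear from 0 for the others) in each mouse (points) of the 5 groups (horizontal axis), with the group mean as a bar. The day 1 mice of ATV:4D9 stand above all others for Uhrf1 (46.5 to 64.5 CPM), Dnmt1, Hells and Ung and below all others for Tet2 and Tet3.

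At day 1 of ATV:4D9, 7 of the 8 genes were past an adjusted p of 0.05 in the limma-voom fit, 5 higher and 2 lower, where 69.2% of all 14260 genes were past it. For 7 of the 8, all 3 day 1 mice lay outside the range of the ATV:RSV mice, as for 71.5% of all genes. These counts are not evidence on the genes, because the same comparison chose them. With the batch of each mouse as a block, 8 of 8 genes were past the threshold, as were 10282 of all 14260 genes. When libraries were scaled by their total alone, the median log2 fold change over all genes moved from −0.05 to −0.29, and that of Uhrf1 was then 6.79, of Hells 5.82, of Dnmt1 2.21, of Ung 6.40, of Tet2 −0.66 and of Tet3 −1.10.

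At day 7 the level of Uhrf1 was 0.372 ± 0.111 CPM, of Hells 1.10 ± 0.168 CPM and of Dnmt1 15.1 ± 1.53 CPM (SD, n = 3), each overlapping the ATV:RSV mice. The change from day 1 to day 7, which also entered the choice of genes, was −7.20 on the log2 scale for Uhrf1 (SE 0.402), −6.79 for Ung (SE 0.309), −6.33 for Hells (SE 0.245) and −2.53 for Dnmt1 (SE 0.0906). Tet2 and Tet3 were higher at day 7 than at day 1, by 0.39 (SE 0.0586) and 0.75 (SE 0.0846) on that scale. In that comparison, 7 of the 8 genes and 66.9% of all genes were past the threshold.

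For the later days the counts come from the same fit. The ATV:RSV and the day 7 mice also entered the comparisons that chose the genes. Of the comparisons below, only day 28 against day 14 has group means from other mice. Its scaling and spread still come from the fit of all 15 mice. The counts of the other comparisons are a description and no independent test. Against ATV:RSV, 0 of 8 genes were called at day 7, 0 of 8 at day 14 and 0 of 8 at day 28 at an adjusted p under 0.05 (limma-voom, Benjamini-Hochberg over 14260 genes), where 3.98%, 0.4% and 0% of all genes were called. No gene of the 8 had an unadjusted p under 0.05 in that fit. edgeR's quasi-likelihood test and DESeq2 each called 0 of the 8 as well. Over all genes at day 28, 571 had an unadjusted p under 0.05 in limma-voom, edgeR called 0 and DESeq2 called 14. Between later days, 0 of 8 were called for day 14 against day 7, for day 28 against day 7 and for day 28 against day 14, where 0.912%, 2.13% and 0% of all genes were called. For day 28 against day 14, 338 of all genes had an unadjusted p under 0.05 in limma-voom, edgeR called 0 and DESeq2 called 70. In all 3 comparisons with ATV:RSV, 0 of 8 genes had 3 mice outside the CPM range of the control mice, against 21.2%, 10.4% and 8.93% of all genes. Counted per 100 cells, with no scaling for depth, all 3 day 7 mice lay below ATV:RSV for Tet3 (35.9 to 38.4 against 41.3 to 46.3 UMIs) and for Dnmt3a (42.9 to 45.4 against 45.6 to 51.4 UMIs), and these values were not tested.

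For the more abundant genes the intervals were narrow. The log2 fold change of Dnmt1 was −0.07 at day 7 (95% interval −0.29 to 0.15), −0.10 at day 14 (−0.31 to 0.12) and −0.12 at day 28 (−0.33 to 0.10). For Dnmt3a, Tet2 and Tet3 the widest of the 9 intervals ran from −0.28 to 0.07, that of Tet3 at day 7, when its 3 mice stood at 64.7, 67.6 and 54.1 CPM. Tdg gave 0.01, 0.01 and −0.07 with intervals between −0.30 and 0.24.

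For the genes with few UMIs the intervals were wide. Uhrf1 had 6, 11 and 10 UMIs in the day 14 mice, or 0.211 ± 0.0853 CPM (SD, n = 3), and its log2 fold change against ATV:RSV was −1.03 (95% interval −2.29 to 0.23, adjusted p = 1.00 by limma-voom). Replicate 1 of ATV:RSV, with 30 UMIs, was the highest of all mice outside day 1 of ATV:4D9. For the same comparison edgeR gave an unadjusted p of 0.0156 and an adjusted p of 0.59, and DESeq2 an unadjusted p of 0.0028 and an adjusted p of 0.175. The intervals of Ung, with 6 to 34 UMIs per mouse at these days, reached from −1.03 to 0.72, and those of Hells, with 32 to 64 UMIs per mouse, from −0.95 to 0.47. Values inside these intervals remain possible, given the few UMIs and 3 mice to a group.

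**Figure D2:**
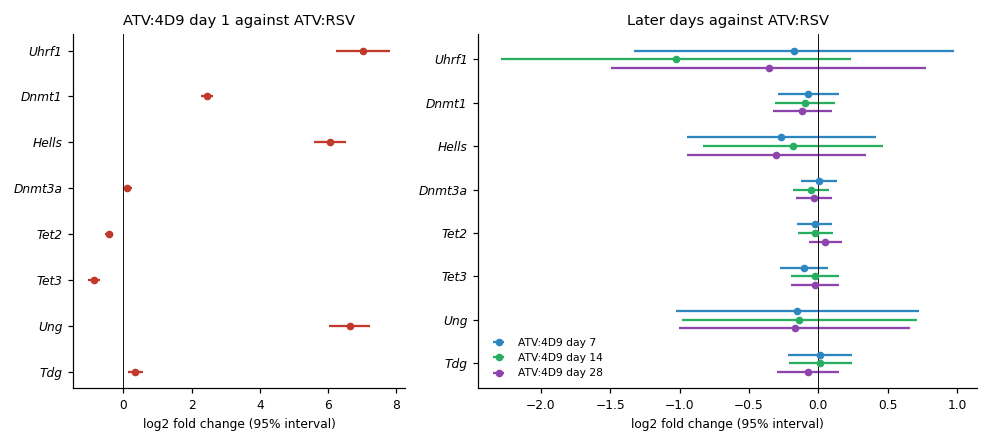
Log2 fold change against ATV:RSV (horizontal axis, points) with its 95% interval from limma-voom (bars) for each gene, at day 1 (left) and at days 7, 14 and 28 (right, on its own scale). At day 1 the values run from −0.86 for Tet3 to 7.03 for Uhrf1, and at the later days every interval includes 0.

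Ordered by mean level, day 1 of ATV:4D9 came first for Uhrf1, Hells, Dnmt1, Ung, Tdg and Dnmt3a and last for Tet2 and Tet3. The other 4 groups overlapped with their neighbours in the order for every gene. For Uhrf1 that order ran from ATV:RSV (0.429 CPM) over day 7 (0.372) and day 28 (0.318) to day 14 (0.211). For Ung it ran from ATV:RSV (0.393 CPM) over day 7 (0.374) and day 14 (0.352) to day 28 (0.345). Neighbouring groups in these orders did not differ beyond the spread of their mice.

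Shares of cells with at least 1 UMI were compared after each cell had been thinned at random to 3385 UMIs, because deeper cells show more genes. The thinning left out 10204 shallower cells, 3.93% to 17.8% of each mouse. Uhrf1 was then found in 11.5%, 15.4% and 13.3% of the cells of the day 1 mice and in 0.14%, 0.143% and 0.105% of those of the ATV:RSV mice. Hells was found in 21.5% ± 3.03 against 0.409% ± 0.0924 of cells, Ung in 10.4% ± 0.522 against 0.124% ± 0.0339 and Dnmt1 in 21.4% ± 2.20 against 5.28% ± 0.427 (SD, n = 3). Without thinning the day 1 shares were 29.3% for Uhrf1, 41.5% for Hells, 24.2% for Ung and 43.4% for Dnmt1. Free RNA in the droplets can add such UMIs, and no cell type known to lack these genes was present for comparison.

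The number of copies in cells with a UMI did not move alike for all genes. Cells with a Uhrf1 UMI held 1.56 ± 0.0575 of them on average at day 1 and 1.30 ± 0.317 in ATV:RSV, and those with a Hells UMI held 1.81 ± 0.0857 against 1.16 ± 0.0796 (SD, n = 3). For Uhrf1 the groups overlapped, since replicate 1 of ATV:RSV stood at 1.67, above all 3 day 1 mice, and for Hells they did not. Cells with a Tet3 UMI held fewer of them at day 1, 1.22 against 1.33, and for Tet2 the means were 1.17 and 1.19 with overlap. These cells were not thinned, and the day 1 cells were deeper. The fullest cell of the day 1 mice held 11 Uhrf1 UMIs and that of the ATV:RSV mice held 6.

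Tet3 was found in 10.9% ± 1.83 of thinned cells at day 1 against 20.4% ± 0.384 in ATV:RSV, and Tet2 in 8.95% ± 0.603 against 13.2% ± 0.165 (SD, n = 3). The shares of Dnmt3a (21.3% ± 2.16 against 22.2% ± 1.25) and of Tdg (4.67% ± 0.518 against 4.08% ± 0.409) overlapped between the groups. At days 7, 14 and 28, the mean shares lay between 0.0724% and 0.102% for Uhrf1 and between 0.0885% and 0.142% for Ung. At day 7 all 3 mice lay below the range of the ATV:RSV mice for Tet3 (17.9% ± 1.13) and for Tet2 (12.2% ± 0.302), and the CPM of both genes overlapped. Thinning sets totals equal and includes no TMM scaling. With libraries scaled by their total alone, the day 7 median log2 fold change over all genes was −0.10, against −0.005 with TMM. The part of this shift in the shares was not tested. At day 14 all 3 mice also lay below that range for Uhrf1, whose CPM overlapped, with 0.0745%, 0.0925% and 0.0501% in its mice from 3 to 5 cells each. Shares were not tested. The share of Tet3 was 19.4% ± 1.20 at day 14 and 20.2% ± 0.117 at day 28 (SD, n = 3).

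**Figure D3:**
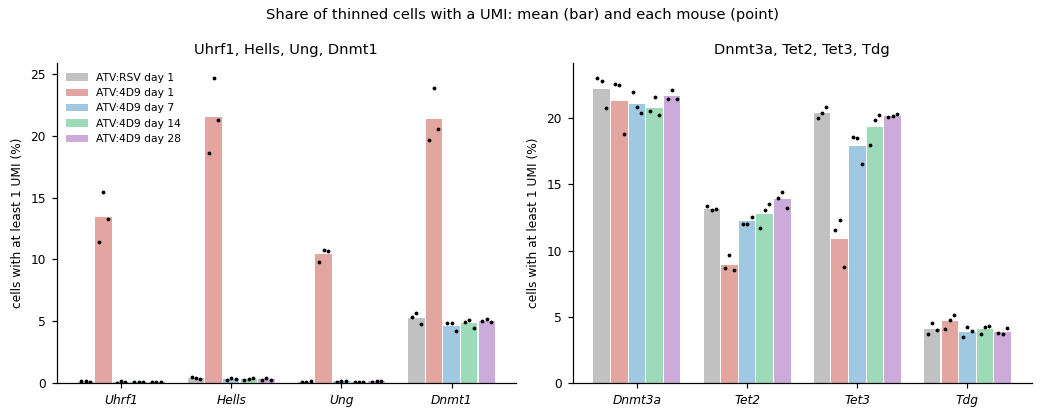
Share of thinned cells with at least 1 UMI of each gene, in percent (vertical axis), as the mean of each group (bars) and each mouse (points). Uhrf1, Hells and Ung stay under 0.5% outside day 1 of ATV:4D9, and Tet2 and Tet3 have their lowest bars at day 1.

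The authors deposited 3 clusters of cells, numbered 0, 1 and 2. Cluster 2 held 87.3% to 93.5% of the cells of the day 1 mice and 1.12% to 2.35% of those of the ATV:RSV mice, and since the cells were clustered on these same counts, the clusters are described and not tested. Which genes entered the clustering is not given in the sources used here. At day 1, Uhrf1 stood at 51.5 ± 8.43 CPM in cluster 2, at 4.18 ± 1.12 in cluster 0 and at 6.62 ± 1.69 in cluster 1, the last 2 from 4 to 15 UMIs per mouse (SD, n = 3; here CPM of the total UMIs in the cluster). In clusters 0 and 1 of ATV:RSV the values were 0.177 and 0.119 CPM. In cells of cluster 0 alone, the day 1 log2 fold change was 4.51 for Uhrf1 (SE 0.482), 3.38 for Ung (SE 0.617), 2.47 for Hells (SE 0.335) and 0.54 for Dnmt1 (SE 0.198).

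The few Uhrf1 UMIs of the control lay mostly in cluster 2. In ATV:RSV, 39 of 58 Uhrf1 UMIs fell in the 339 cells of cluster 2 among 20301 cells, with 23 of 30, 10 of 18 and 6 of 10 in the 3 mice. For Hells it was 49 of 183 UMIs and for Ung 13 of 52. At day 28 it was 14 of 47 UMIs for Uhrf1, at day 7 15 of 43 and at day 14 5 of 27, in cluster 2 cells that made up 1.51%, 2.65% and 1.22% of all cells. Replicates 1 to 3 gave 5 of 16, 7 of 17 and 2 of 14 at day 28. They gave 1 of 10, 3 of 16 and 11 of 17 at day 7 and 0 of 6, 1 of 11 and 4 of 10 at day 14. Tet3 was lower in cluster 2 than in clusters 0 and 1 in every group, with 48.9 ± 11.1 CPM against 65.4 and 82.1 in ATV:RSV and 31.3 ± 3.97 against 52.0 and 75.4 at day 1 of ATV:4D9.

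Cells were next grouped by lists of 35 S phase genes and 40 G2/M genes, which hold none of the 8. S-list-rich cells had at least 5 UMIs of the S phase list after thinning and more than of the other list, G2/M-list-rich cells at least 5 of the G2/M list and at least as many as of the S phase list. These classes are ranges of a count, not cell types, and 1815 and 1613 of 19482 day 1 cells had 4 or 5 UMIs of the fuller list, just under or at the limit. Levels in these classes, and in the ranges of list content further on, are CPM of the total UMIs of the cells without TMM scaling. S-list-rich cells made up 55.8% to 63.3% of the day 1 mice and 0.839% to 1.20% of the ATV:RSV mice, and G2/M-list-rich cells 1.93% to 2.72% against 0.507% to 0.671%.

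At day 1 of ATV:4D9, Ung was lower in G2/M-list-rich than in S-list-rich cells in all 3 mice, while Uhrf1 was higher there. G2/M-list-rich cells were also the richer in S phase list UMIs, with medians of 10, 13 and 14 per thinned cell in the 3 mice against 9 in S-list-rich cells of each, and the part of this in the levels was not tested. The level of Ung was 49.1 ± 1.60 CPM in S-list-rich cells, 15.9 ± 3.72 in G2/M-list-rich cells and 12.7 ± 0.249 in the remaining cells (SD, n = 3). Uhrf1 stood at 66.5 ± 8.26 CPM in S-list-rich cells, 87.7 ± 10.4 in G2/M-list-rich cells and 14.9 ± 2.08 in the remaining cells. Dnmt1 followed with 96.3 ± 5.95, 109 ± 11.5 and 41.0 ± 4.98 CPM, and Hells with 108 ± 9.29, 85.9 ± 13.3 and 30.5 ± 6.30 CPM. The order for Uhrf1 depended on the limit of 5 UMIs, since with a limit of 3 its mean was 53.0 CPM in G2/M-list-rich and 57.2 CPM in S-list-rich cells, and with a limit of 10 it was 107 and 97.2 CPM. For Ung the means were 15.2 and 42.7 CPM with a limit of 3 and 14.5 and 66.3 CPM with a limit of 10. The 19 to 35 Ung UMIs and the 124 to 223 Uhrf1 UMIs per mouse in G2/M-list-rich cells set the precision of these values.

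Between the classes Dnmt3a ranged only from 67.4 to 76.4 CPM and Tdg from 10.9 to 14.7 CPM, as means of 3 mice. Tet3 stood at 32.3 ± 4.32, 32.1 ± 2.50 and 31.7 ± 4.28 CPM in S-list-rich, G2/M-list-rich and remaining cells of day 1, and at 68.5 ± 0.935 CPM in the remaining cells of ATV:RSV (SD, n = 3). Tet2 gave 25.7 ± 2.44, 26.2 ± 2.95 and 27.9 ± 1.52 CPM at day 1 and 41.0 ± 0.329 CPM in the remaining cells of ATV:RSV. Without TMM scaling, day 1 levels stand lower against ATV:RSV in general. With libraries scaled by their total alone, the day 1 median log2 fold change over all genes was −0.29, against −0.05 with TMM. The remaining cells are not alike in the 2 groups. At day 1, 77.0% to 88.9% of them lay in cluster 2, and in ATV:RSV 0.948% to 1.87%, and they held a median of 2 S phase list UMIs at day 1 and of 1 in ATV:RSV. In remaining cells of cluster 0, Tet3 was 50.7 ± 1.80 CPM at day 1 and 65.3 ± 1.93 in ATV:RSV, and Tet2 was 34.9 ± 4.88 and 39.0 ± 1.61 with overlap (SD, n = 3). In those of cluster 1 both overlapped, Tet3 with 68.6 ± 10.5 against 78.1 ± 1.22 CPM and Tet2 with 45.3 ± 3.51 against 46.0 ± 4.77 CPM. In all remaining cells Uhrf1 was 14.9 CPM at day 1 and 0.208 CPM in ATV:RSV, found in 4.20% ± 0.668 and 0.0632% ± 0.00989 of thinned cells, at median depths of 7712 to 8225 and 5451 to 6005 UMIs per cell before thinning. In those of cluster 0 it was 3.00 and 0.170 CPM, and in those of cluster 1 6.49 and 0.112 CPM, from 0 to 9 UMIs per mouse.

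Across day 1 cells split by the number of S phase list UMIs, Uhrf1 went from 5.52 ± 1.22 CPM at 0 UMIs over 20.3 ± 2.41 at 3 to 4 and 88.9 ± 7.96 at 10 to 19 to 149 ± 10.6 at 20 or more (SD, n = 3). Hells went from 7.96 ± 1.53 to 184 ± 24.8 CPM and Dnmt1 from 20.4 ± 3.03 to 147 ± 5.97 CPM over the same range. Ung went from 4.40 ± 1.07 to 61.8 ± 2.45 CPM at 10 to 19 UMIs and stood at 70.8 ± 9.28 in the fullest cells. Tet3, with 37.7 ± 5.70 CPM in cells without such a UMI and 36.6 ± 7.39 CPM in the fullest, had its lowest mean at 3 to 4 UMIs, 28.7 ± 4.62. Tet2 was highest in cells without such a UMI, at 33.5 ± 0.639 CPM, and Dnmt3a (84.7 ± 9.48 CPM) and Tdg (16.9 ± 0.894 CPM) were highest in the fullest cells. The S phase list and these genes were counted in the same cells of 3 mice, so the trend is a description of those cells.

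**Figure D4:**
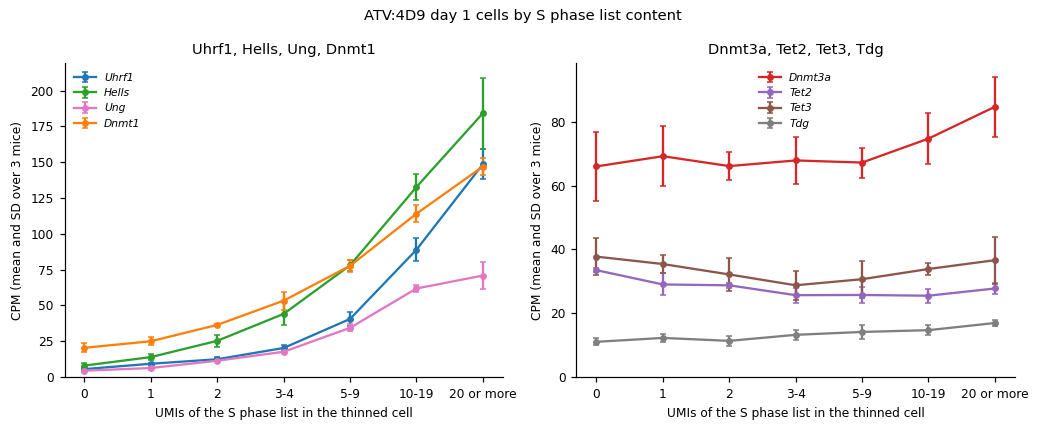
CPM of each gene (vertical axis, of total UMIs without TMM scaling, mean and SD over 3 mice) in day 1 cells of ATV:4D9 by the number of S phase list UMIs in the thinned cell (horizontal axis, 7 ranges). Uhrf1, Hells, Dnmt1 and Ung climb with list content, Uhrf1 from 5.52 to 149 CPM, while the means of Tet3 stay between 28.7 and 37.7 CPM.

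Within single day 1 cells, Hells was more frequent in cells with Uhrf1 than in cells without. Among cells with a Uhrf1 UMI, 29.5%, 40.0% and 36.9% also had Hells in the 3 mice, against 17.2%, 21.9% and 18.9% of cells without. For Ung it was 16.5%, 17.9% and 17.6% against 8.97%, 9.47% and 9.63%, and for Dnmt1 32.8%, 29.9% and 27.4% against 18.0%, 22.7% and 19.5%. Tet2 was found in 8.17%, 9.17% and 7.06% of cells with Uhrf1 and in 8.74%, 9.72% and 8.76% of cells without. All 3 mice had the same direction for these 4 genes, and no test was made, cells being no replicates.

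For 9723 genes, the share of day 1 cells with the gene among cells with Uhrf1 was divided by that among cells without. Ranked by the lowest of these ratios over the 3 mice, the first 5 genes were Gen1, Ccne2, Bard1, Mki67 and Rrm2. A high ratio does not mean a frequent gene. Gen1 encodes a resolvase of recombination junctions and its ratio was 3.19 to 3.62. It was rare, in 2.68%, 2.96% and 3.33% of cells with Uhrf1 and in 0.793%, 0.930% and 0.918% of cells without. Ccne2 encodes the G1/S cyclin E2, with 3.15 to 3.60, and Bard1 the partner of BRCA1, with 3.05 to 3.61. Mki67, a proliferation marker, had 2.92 to 4.09 and Rrm2, a subunit of ribonucleotide reductase, 2.90 to 4.71. By the same measure Ung ranked 109, Hells 134, Dnmt1 387 and Tdg 1941, while Dnmt3a, Tet3 and Tet2 ranked 6443, 6515 and 7853.

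Over the 15 mice, the genes whose log2 CPM followed that of Uhrf1 most closely were Zwilch, Mcm10, Mcm2, Pold1 and Cbx5, with Pearson r of 0.992 to 0.994. These values describe the gap between the 3 day 1 mice and the other 12. Over the 12 other mice the 5 closest genes were Nradd, Mcu, Tmem104, Slc39a2 and Asb7, with r of 0.767 to 0.842. Uhrf1 had only 6 to 30 UMIs in each of those mice, and Hells then ranked 371 and Ung 7632.

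Around the 8 genes, 7 lists of genes in or near DNA methylation and base excision repair were written with earlier results known. Of their 75 genes, 71 were tested. At day 1, 35 were past the threshold as higher and 20 as lower, where 34.7% and 34.6% of all genes were, and the median log2 fold change was 0.18 over the lists and −0.05 over all genes. Since day 1 was used to choose the 8 genes, these values are a description as well. Among those with too few counts were Cxxc4 (51 UMIs in all mice) and Dnmt3c and Dnmt3l (both 0). The lists overlap in Pcna, Lig1 and Mbd4, which were counted once in the totals over the lists. Pcna, Pclaf, Cdca7, Fen1 and Tyms were also in the S phase list, so the results of these lists and of that list share genes.

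Partners of maintenance were mostly higher at day 1, 8 of 10, with a median of 1.56. The highest were Cdca7l (5.26, SE 0.289), a relative of the HELLS activator Cdca7, and Pclaf (5.22, SE 0.411), a PCNA-binding protein that helps to recruit DNMT1. The lowest were Rb1 (−0.49, SE 0.0642), the retinoblastoma protein, and the UHRF1 relative Uhrf2 (−0.11, SE 0.0447). Genes of dUTP removal and methyl donor supply were higher for 6 of 8, with a median of 2.43, led by the dUTPase gene Dut (4.45, SE 0.13). The lowest of that list were Mat2b (−0.49, SE 0.0536) and Samhd1 (−0.09, SE 0.0573), which was not past the threshold.

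Later steps of base excision repair were higher for 13 of 19 genes and lower for none, with a median of 0.84. Pole (5.93, SE 0.351), a replicative polymerase subunit, and Lig1 (3.94, SE 0.115), the ligase of replication, were the highest. The lowest were Aptx (−0.15, SE 0.0768) and Parg (−0.12, SE 0.0689), both not past the threshold. Of 9 further DNA glycosylases, 4 were higher and 2 lower, with a median of 0.18. Neil3 gave 5.35 (SE 0.764) and Mbd4 1.54, and the lowest were Neil2 (−0.69, SE 0.248) and Smug1 (−0.40, SE 0.0953), the other main uracil glycosylase.

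Readers of methylated CpGs and the oxidation list had more genes below the control. Of 12 readers, 8 were lower and 3 higher, with a median of −0.46. Zbtb4 (−1.06, SE 0.0762) and Zbtb38 (−0.98, SE 0.0577) were the lowest, and Mbd4 and Mbd3 (0.81, SE 0.043) the highest. In the oxidation and active demethylation list 6 of 9 were lower and 2 higher, with a median of −0.69. Tet1 stood lowest at −1.47 (SE 0.106), next to Gadd45a at −1.31 (SE 0.193), while Gadd45b, a stress-induced gene, reached 1.80 (SE 0.196) and Apobec3 0.71 (SE 0.0699). Other methyltransferases and regulators had 2 of 7 higher and 1 lower, from Nsd1 (−0.35, SE 0.0786) and Trdmt1 (−0.35, SE 0.159, not past the threshold) to Smchd1 (0.41, SE 0.0573) and Zfp57 (0.79, SE 0.204).

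Most genes of both cycle lists were past the threshold as higher at day 1, where 34.7% of all genes were higher and 34.6% lower. All 35 S phase genes were higher, with a median of 4.08, and 38 of 40 G2/M genes, with a median of 3.18. The S phase list ran from Slbp (1.18) and Rfc2 (1.80) to Dtl (7.39) and Cdc6 (7.49). The G2/M list ran from Ckap5 (−0.14) and Cenpa (0.01), both not past the threshold, to Bub1 (4.73) and Top2a (4.74). Of 14 genes induced by tissue dissociation, 9 were lower and 1 higher at day 1, from Jund (−1.01) and Jun (−0.88) to Hspa1a (0.93, not past the threshold) and Ier3 (1.14), and the part of dissociation in the results was not tested.

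**Figure D5:**
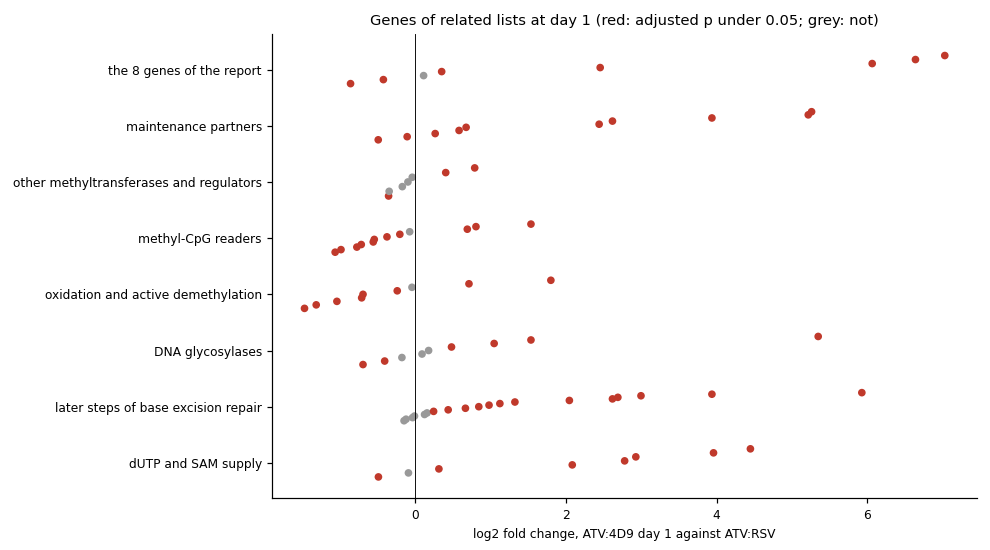
Log2 fold change at day 1 of ATV:4D9 against ATV:RSV (horizontal axis) for each gene of the 8 described and of 7 related lists (rows), in red where the adjusted p of limma-voom is under 0.05. Uhrf1, Ung and Hells lie between 6.06 and 7.03, past every gene of the 7 lists, of which Pole is the highest at 5.93.

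At day 7, 3 of the 71 genes were higher and 3 lower than in ATV:RSV (limma-voom, Benjamini-Hochberg over all genes), where 2.99% and 0.996% of all genes were. The stress gene Gadd45b was higher by 0.82 on the log2 scale (SE 0.2, adjusted p = 0.0302) and its relative Gadd45g lower (−0.99, SE 0.141, adjusted p = 0.000414). Zbtb38, a methyl-CpG reader, was lower (−0.37, SE 0.0574, adjusted p = 0.00103). Uhrf2 (0.19, SE 0.045, adjusted p = 0.0276) and Apobec3 (0.31, SE 0.0708, adjusted p = 0.0182) were higher.

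By days 14 and 28, 0 of the 71 genes were called against ATV:RSV by limma-voom, where 0.4% and 0% of all genes were. At an unadjusted p under 0.05 stood 5 genes at day 14 and 4 at day 28, edgeR and DESeq2 called 0 at either day, and with the replicate number as a block 1 was called at day 14. Gadd45g was higher at day 14 than at day 7 by 0.67 (SE 0.144) and at day 28 by 0.92 (SE 0.141), and Zbtb38 was higher at day 28 than at day 7 (0.29, SE 0.0572). Of the G2/M list, Gas2l3 was higher (0.74, SE 0.156) and Tubb4b lower (−0.40, SE 0.0831) at day 7, and of the dissociation list Jun was lower (−0.25, SE 0.0637). Tubb4b and Jun were higher again at day 28 than at day 7, by 0.39 (SE 0.0826) and 0.29 (SE 0.0636), and Jun also at day 14, by 0.29 (SE 0.0637).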

How the data were processed

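Single-cell 3′ libraries (10x Chromium v3) were made from 15 mice, 3 in each of 5 groups taken from the labels. Per the labels, the authors mapped reads to mm10 with Cell Ranger 4.0.0, whereas the study's methods name other versions, and whether intron reads were counted is not given in the sources used here. As deposited, the matrix gave raw UMI counts of genes in single cells, for those cells that passed the authors' filters, and the deposited cell table gave the mouse, the cluster number, UMI counts and the percent of mitochondrial UMIs of each cell, at most 10%. Matrix sums were equal to the deposited UMI counts in 102043 of 102043 cells. No doublet caller was run, and whether doublets had been removed is not given in the sources used here.

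Counts were summed per mouse, kept by filterByExpr (minimum count 10, minimum total 15), scaled with TMM factors and fitted by limma-voom on group means over 15 mice (R 4.3.3 with edgeR 4.0.16 and limma 3.58.1), with Benjamini-Hochberg adjustment over 14260 genes and calls at an adjusted p under 0.05. Alternatives were edgeR's quasi-likelihood test, DESeq2 1.42.0, 2 other scalings, no filter, a batch block, leaving out each mouse, and 3 selections of cells. The labels put all 5 conditions into every batch. The main fit had no batch term, and mice were matched by batch number only in the batch block. Across genes, residuals about the group mean had an average correlation of 0.0539 for mice of 1 batch (−0.225 to 0.259 in 30 pairs) and of −0.0267 for mice of different batches. Replicates differed by more than counting noise (chi-square per degree of freedom 9.90 to 26.7). p-values measure the spread between these mice, and shares with a UMI carry counting error besides.

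Members, lists and motifs were chosen with earlier results of these data known. All 8 members are named. Genes of the lists are named where called at a later day or as the 2 highest and 2 lowest at day 1, and 5 genes most like Uhrf1 over mice and over cells, except that some list genes which enter the counts are not reported here by name. The control animal that the labels mention beside these 15 was not analysed here.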

Additional observations from a re-analysis of the deposited data

How the results depend on the processing

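The count of 0 of 8 genes called held in all 6 comparisons of later days under all 15 alternatives of each, with the replicate block included. With that block, 1014, 122 and 2 of all 14260 genes were called at days 7, 14 and 28 against ATV:RSV. Log2 fold changes that changed sign are given next, none of them called except that of Tdg at day 1, which was past the threshold with all cells. With cells of cluster 0 only, the values at day 7 were 0.46 for Uhrf1, 0.057 for Hells, 0.0072 for Tet2 and −0.020 for Tdg, at day 14 0.18 for Hells, 0.26 for Ung and −0.032 for Tdg, and at day 28 0.36 for Uhrf1 and 0.15 for Ung, and Tdg at day 1 was −0.19. Without the 5% of cells with most UMIs, day 7 gave 0.16 for Uhrf1 and −0.0085 for Dnmt3a. Scaling by library size alone gave −0.13 for Dnmt3a at day 1, −0.094 for Dnmt3a and −0.085 for Tdg at day 7 and −0.042 for Tdg at day 14. With no filter Dnmt3a gave −0.0068 at day 7, without cells with 3 markers of another type −0.0017, and with the replicate block Tdg gave −0.0033. edgeR and DESeq2 gave 0.056 and 0.064 for Ung at day 7. Leaving out a mouse gave −0.52 to 0.15 for Uhrf1, −0.15 to 0.028 for Dnmt1, −0.039 to 0.062 for Dnmt3a, −0.47 to 0.020 for Hells, −0.78 to 0.28 for Ung and −0.056 to 0.064 for Tdg at day 7, −0.39 to 0.10 for Hells, −0.064 to 0.036 for Tet2, −0.058 to 0.028 for Tet3, −0.32 to 0.042 for Ung and −0.050 to 0.082 for Tdg at day 14, and −0.35 to 0.0060 for Ung at day 28. The cause was not tested. At day 1, Dnmt3a passed the threshold in 3 of 15 alternatives, Tdg in 13, Dnmt1, Tet2 and Tet3 in 14, each failing with cluster 0 only, and Uhrf1, Hells and Ung in 15. These counts are a description and no support, because day 1 entered the choice of the genes. Of all genes, 69.2% were past the threshold at day 1 in the main fit, and 679 of 13329 with cluster 0 only. Beside Dnmt3a at day 1 and between days 1 and 7, the replicate block changed no call of a member. In the classes of day 1 cells, a limit of 3 or 10 UMIs in place of 5 moved 8 of 16 levels in S-list-rich, 5 of 16 in G2/M-list-rich and 9 of 16 in the remaining cells by more than the spread between mice, and that of Uhrf1 in the remaining cells went from 14.9 CPM to 9.09 and 27.5 CPM. Uhrf1 and Ung rest on 6 to 34 UMIs per mouse outside day 1, which limits what their later days can show, and counting error adds to the shares of cells.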
